A study of Mus musculus with 10 samples.

Results

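G9577 is a cell line from a mouse small cell lung cancer (SCLC) that stood apart from 4 other lines of the same series by its high level of Vim, the gene of the intermediate filament vimentin. The line was chosen by this level: its 2 libraries, of 10 in all, were those with Vim above 100 CPM, a gene's count scaled to the total of its library. The other 8 libraries came from the lines G4314, G9351, G9488 and G9529. All lines carry the alleles written in the labels as Rb;p53, TRE-MYCN and LSL-RTTA. These are altered Rb and p53 genes, MYCN under a tetracycline-responsive promoter and an rtTA activator behind a stop that Cre recombinase removes. Each line was sequenced once while grown with doxycycline (MYCN on) and once after 4 days without it (MYCN off). G9577 is therefore 1 line with 1 culture per condition named in the labels, and what is shown for it describes that line and not a class of lines. Labels name no second culture of a line, so p-values measure only the spread between these samples. The Cre and the cells it targeted are not given in the sources used here.

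SCLC is mostly a neuroendocrine tumour: its cells carry secretory granules and synaptic proteins under transcription factors such as NEUROD1 and INSM1. A non-neuroendocrine state is also known, in which Notch signalling, the repressor REST and the Hippo pathway effector YAP are active and neuronal genes are low. Cells that lose epithelial adhesion and gain vimentin, fibronectin and other matrix genes are called mesenchymal. MYCN is a transcription factor of the MYC family that raises genes for ribosome assembly and cell growth.

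Vim (mm9, chromosome 2, 13495938 to 13504453, plus strand) was at 1470.1 CPM on doxycycline and 3560.5 CPM off it in G9577. With MYCN on, it was at 0.199, 0, 0.459 and 0.48 CPM in G4314, G9351, G9488 and G9529, the order used for the 4 lines throughout. With MYCN off it was at 0.374, 0, 0.101 and 0.36 CPM in them. These values, like all levels compared here between G9577 and the 4 lines, describe the contrast by which the line was chosen and carry no test. No library came near the limit: the 8 libraries outside it reached at most 0.48 CPM, and the lowest inside it held 1470.1 CPM.

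The other markers of the 2 states split the same way in both conditions. Where a pair of levels is given for G9577, the first is with MYCN on and the second with MYCN off. Fn1, the gene of fibronectin, was at 1358 CPM on doxycycline and 8193 CPM off it in G9577 and at 0.384 to 20.1 CPM in the 8 other libraries. Sparc, a matrix-binding glycoprotein, was at 1038 and 1710.4 CPM against 0 to 0.918 CPM, and Col1a1, a chain of type I collagen, at 37.96 and 443 CPM against 0.0961 to 2.02 CPM. Yap1 was at 274 and 204 CPM against 4.5 to 24.2 CPM and Rest at 36.1 and 50.2 CPM against 0.09 to 0.939 CPM. All 6 of these genes were above every other line.

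The 3 remaining markers were below every other line. Chga, the granule protein chromogranin A, was at 1.09 CPM on doxycycline and 9.53 CPM off it in G9577 and at 298 to 562 and 979.9 to 1670.1 CPM in the 4 lines. Insm1 was at 2.01 and 2.43 CPM against 472 to 1054 CPM, and Epcam, an epithelial adhesion molecule, at 0.92 and 3.24 CPM against 659 to 909 CPM. By these markers G9577 held mesenchymal and few neuroendocrine transcripts. In RNA from whole cultures, fewer cells of a type and less RNA per cell cannot be told apart. Of the factors that name SCLC subtypes, Neurod1 was at 0.418 and 0.27 CPM against 2.07 to 80.4 CPM. Pou2f3, the tuft cell factor, was at or below 0.92 CPM in all libraries.

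Mycn checked the doxycycline labels. It was at 876 CPM on doxycycline and 69.4 CPM off it in G9577. In the 4 lines it was at 546, 524, 874 and 799.8 CPM on and at 182, 29.5, 194 and 112 CPM off doxycycline. Every line was higher with doxycycline, and the level of G9577 with MYCN on did not exceed that of G9488 by more than the spread of the 4 lines. Mycn reads cannot be assigned to the transgene or the mouse gene. Rb1 was at 17.98 and 26.6 CPM in G9577 and at 58.2 to 337 CPM in the other libraries, and Trp53 at 11.5 and 13.5 CPM against 11.4 to 18.5 CPM. The counts cover whole genes, so these values do not check which exons were removed.

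**Figure D1:**
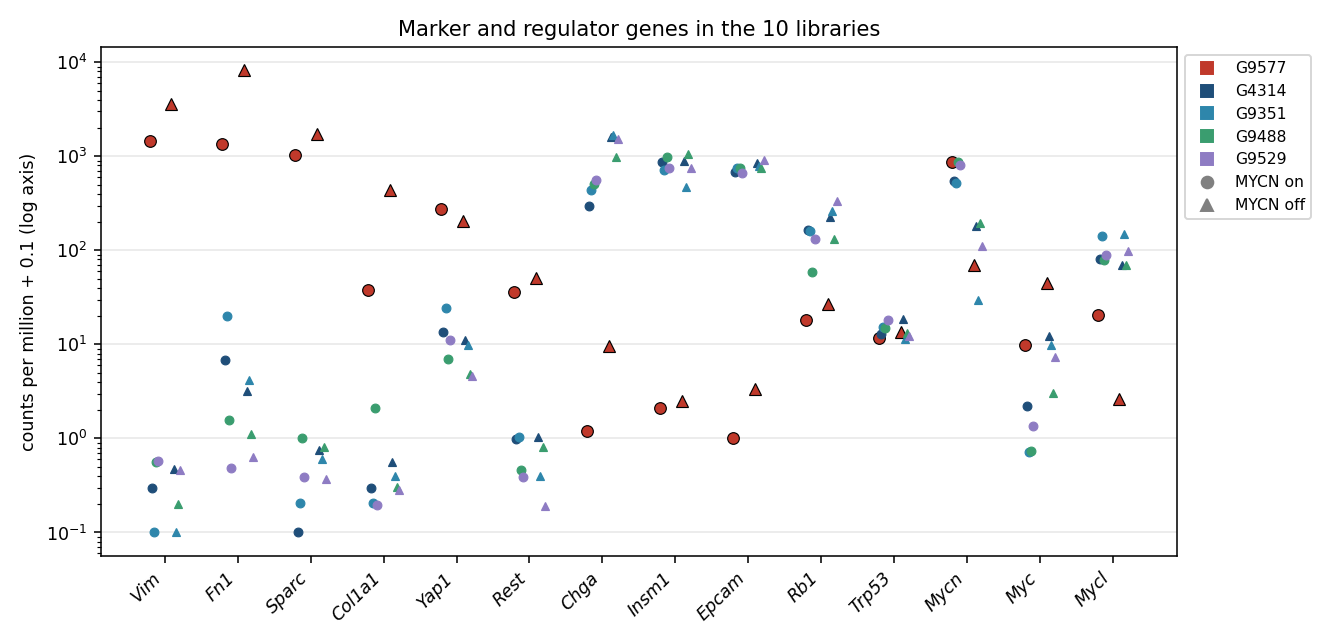
Level of 14 marker and regulator genes in all 10 libraries, as CPM plus 0.1 on a log axis. Circles are libraries with MYCN on and triangles libraries with MYCN off, coloured by line, with G9577 in red with a black edge. Vim to Rest are highest in G9577, Chga to Epcam are lowest in it, and Trp53 overlaps in all lines.

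Library totals ran from 9586465 to 11960074 counts, and 14456 of 24391 genes passed the filter on low counts. Spearman's correlation of log2 CPM across these genes, which share library and depth, was 0.626 to 0.769 between a G9577 library and one of another line and 0.844 to 0.967 among the 8 other libraries. The 2 libraries of G9577 correlated at 0.872. Genes were called past the fold where G9577 lay at least 4-fold from the mean of the 4 lines on the log2 CPM scale and outside their range. With MYCN on, 1251 genes (8.65%) were higher in G9577 and 2055 (14.2%) lower. With MYCN off, 1696 (11.7%) were higher and 2128 (14.7%) lower. In both conditions 1135 genes (7.85%) were higher and 1555 (10.8%) lower. The 1135 higher genes made up 7.72% of all counts of G9577 with MYCN on and 18.1% with MYCN off, against 0.588% to 1.14% in the other libraries. The 1555 lower genes made up 0.454% and 0.555%, against 8.28% to 14.1%.

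Genes of the contractile and mesenchymal cytoskeleton were far higher in G9577. Of 29 genes listed, 28 passed the filter and 21 were past the fold higher in both conditions, none lower, with a median difference of 6.29 (log2) with MYCN on and 6.46 with MYCN off. The medians over all genes tested were -0.21 and -0.27. A gene that is low in 8 libraries could pass the filter only through G9577, so the genes that passed are not all of a list and these counts describe the line only. Acta2, smooth muscle actin, was at 725 CPM on doxycycline and 1953 CPM off it and at 0 to 0.504 CPM elsewhere. S100a6, a calcium-binding protein, was at 389 and 829 CPM against 0 to 0.0961 CPM and Lgals1, the lectin galectin-1, at 791 and 516 CPM against 0.201 to 1.01 CPM. Among the 15 genes that stood farthest above the other lines were also Msn (moesin, a link of actin to the membrane; 615 and 454 CPM against 0.104 to 0.906), Cnn2 (a calponin; 291 and 811 CPM against 0 to 2.52) and Flnc (a filamin; 354 and 404 CPM against 0.0961 to 0.56). Fhl1, a LIM domain protein of muscle, was at 736 and 782 CPM against 0 to 6.33 CPM. Also among these 15 were the adhesion receptor gene Adgrf5 (286 and 1011 CPM against 0 to 0.841), the tetraspan gene Tm4sf1 (128 and 171 CPM against 0 to 0.201), Kirrel (282 and 768 CPM against 0 to 1.69) and Lhfp (149.9 and 338 CPM against 0 to 1.49).

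Matrix genes were also higher. Of 48 listed, 43 passed the filter and 33 were past the fold higher in both conditions, 1 lower, with medians of 4.80 and 6.03. Col6a1, a chain of type VI collagen, was at 128 CPM on doxycycline and 1489.8 CPM off it and at 0 to 0.502 CPM in the other libraries. Timp3, an inhibitor of metalloproteinases, was at 189.7 and 1429.6 CPM against 0 to 6.91 CPM. Pcolce, an enhancer of collagen processing that is not on the list, stood among the 15 farthest genes, at 483 and 868 CPM against 0.199 to 1.03 CPM. The summed level of the 48 matrix genes was 6279 CPM on and 27253 CPM off doxycycline in G9577. In the 4 lines it was 435 to 946 and 615 to 1375 CPM.

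Of 14 listed transcription factors and regulators of the epithelial to mesenchymal transition, 12 passed the filter and 9 were past the fold higher in both conditions, with medians of 4.12 and 5.29. Twist1 was at 52.8 CPM on doxycycline and 91.4 CPM off it, while the 4 lines held no Twist1 count with MYCN on, which puts G9577 at least 721-fold higher against a floor of 3 counts over the 4 lines. Runx2, a factor of bone and matrix genes, was at 43.4 and 216 CPM against 0 to 1.49 CPM and Runx1 at 52.6 and 204 CPM against 0 to 2.99 CPM. Snai1, a repressor of E-cadherin, was at 17.6 and 101 CPM against 0.522 to 1.91 CPM. Prrx1, picked after its values were seen, did not pass the filter and was at no more than 0.27 CPM in any library. Of 26 integrin and focal adhesion genes, all passed the filter, 15 were higher and 1 lower in both conditions, with medians of 2.40 and 2.83. Itga5, the fibronectin receptor chain, was at 55.7 and 93.9 CPM against 0 to 0.104 CPM, and Itgav, another integrin chain, was at 139 and 342 CPM in G9577, 10.3 and 11.2 in G4314 and at most 0.27 CPM in the other 3 lines.

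Of the 33 genes of the YAP and TEAD pathway, 15 were past the fold higher in both conditions and 1 lower, with medians of 1.94 and 2.92. Wwtr1, which encodes TAZ, the partner of YAP, was at 134 and 305 CPM against 0 to 1.73 CPM. The classic targets Cyr61 and Ctgf, both secreted matrix proteins, were at 423 and 2738 CPM against 0.09 to 2.52 CPM and at 74.7 and 475 CPM against 0 to 0.72 CPM. Ajuba, a LIM protein that binds the LATS kinases, was at 122 and 93.2 CPM against 0.0918 to 1.03 CPM. Ankrd1, an ankyrin repeat target of YAP, was at 27.01 and 19.4 CPM and had no count in the 8 other libraries, so that it was at least 368-fold and 269.9-fold higher. Tead1, which binds DNA for YAP and was picked after its values were seen, was at 221 and 254 CPM against 132 to 226 CPM and was not past the fold.

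The promoters of Ankrd1 and Ajuba are shown because, among the named genes of the YAP, granule and synapse lists, they held the most matches to the TEAD motif GGAATG or its reverse complement CATTCC. Shown are the 250 bases before the gene start (RefSeq, build GRCm38.p6, not the build of the counts). Capitals mark the motif in either orientation, and each promoter held 2 matches:
Ajuba, chr14:54577662-54577911, minus strand: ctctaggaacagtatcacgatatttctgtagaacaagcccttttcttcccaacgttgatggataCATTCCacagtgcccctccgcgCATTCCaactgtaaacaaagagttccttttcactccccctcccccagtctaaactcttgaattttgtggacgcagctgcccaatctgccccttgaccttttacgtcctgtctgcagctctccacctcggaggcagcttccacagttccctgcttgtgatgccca
Ankrd1, chr19:36119845-36120094, minus strand: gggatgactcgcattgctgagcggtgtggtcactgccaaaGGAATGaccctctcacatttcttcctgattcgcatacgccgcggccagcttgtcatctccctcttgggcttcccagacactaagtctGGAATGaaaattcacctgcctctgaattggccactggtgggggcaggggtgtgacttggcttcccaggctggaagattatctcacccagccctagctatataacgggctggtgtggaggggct
In Ajuba the matches began 186 and 164 bases before the start, and in Ankrd1 210 and 123 bases before it. In windows from 250 bases before to 50 after the start, GGAATG was found on either strand in 16 of 30 promoters (53.3%) of 25 matched genes of the YAP list. It was found in 14.7% of 32851 promoters of all genes, in 17.9% of those of the genes higher in G9577 in both conditions and in 12.6% of those of the genes lower. The AP-1 motif TGANTCA was found in 7.81% of all promoters, 7.90% of those of the higher and 6.98% of those of the lower genes. The E-box CACGTG was found in 7.15%, 7.28% and 6.57%. Of the 30 promoters of the YAP list, 7 (23.3%) held the E-box and 1 (3.33%) the AP-1 motif. The core of the REST element (CAGCACC, any 2 bases, GGACAG) was found in 12 of all promoters (0.0365%), in none of the 1126 promoters of the higher genes and in 5 of the 1447 (0.346%) of the lower genes. None of the promoters of the granule and synapse genes held it. The 3 other motifs were searched on both strands too. A match is a run of letters and not a measured site.

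Ligands and receptors of other pathways were split. Of 38 receptor tyrosine kinase genes and ligands, 35 passed the filter, 14 were higher and 5 lower in both conditions, with medians of 1.83 and 2.11. Igfbp4, a binding protein of insulin-like growth factors, was at 85.3 CPM on doxycycline and 1199 CPM off it and at 0 to 0.73 CPM in the other libraries. Pdgfrb, a receptor of mesenchymal cells that stands on the mesenchymal list, was at 113 and 871 CPM against 0 to 0.734 CPM. Ret, a receptor of neuroendocrine cells, was at 0.585 and 1.98 CPM against 192 to 512 CPM, and Tgfa, an EGF receptor ligand, at 0.0836 and 0.36 CPM against 24.3 to 120.0 CPM. Of 31 TGF-beta and BMP genes, 30 passed, 13 were higher and 2 lower, with medians of 1.79 and 2.0. Tgfbr2, a TGF-beta receptor, was at 16.3 and 109 CPM against 0 to 1.25 CPM. Bmp7, a ligand, had no count in G9577 and was at 15.1 to 149 CPM in the others.

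Genes of antigen presentation, interferon and inflammation that lay past the fold in both conditions were all higher in G9577. Of 47 interferon and inflammation genes, 35 passed and 19 were higher, with medians of 2.56 and 2.81. The chemokine Cxcl12 was at 35.5 CPM on doxycycline and 849.8 CPM off it and at 0 to 0.374 CPM elsewhere, and the macrophage growth factor Csf1 at 211 and 898 CPM against 0.0918 to 3.36 CPM. Of 24 genes of antigen presentation, 20 passed and 6 were higher, with medians of 1.08 and 1.11. Tap2, a peptide transporter, was at 4.35 and 32.9 CPM against 0 to 3.46 CPM. B2m, the light chain of MHC class I, was at 192 and 254 CPM against 2.2 to 22.2 CPM. H2-Q4 is also among the 6, but near-identical class I genes share reads and single values are uncertain. Of 27 genes of drug transport and detoxification, 22 passed, 11 were higher and 1 lower, with medians of 2.64 and 3.31. The efflux pump Abcg2 was at 99.9 and 109 CPM against 0 to 6.68 CPM, Abcb1b at 60.03 and 18.3 CPM against 0 to 1.79 CPM, and the quinone reductase Nqo1 at 33.4 and 33.5 CPM against 0.09 to 0.673 CPM.

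**Figure D2:**
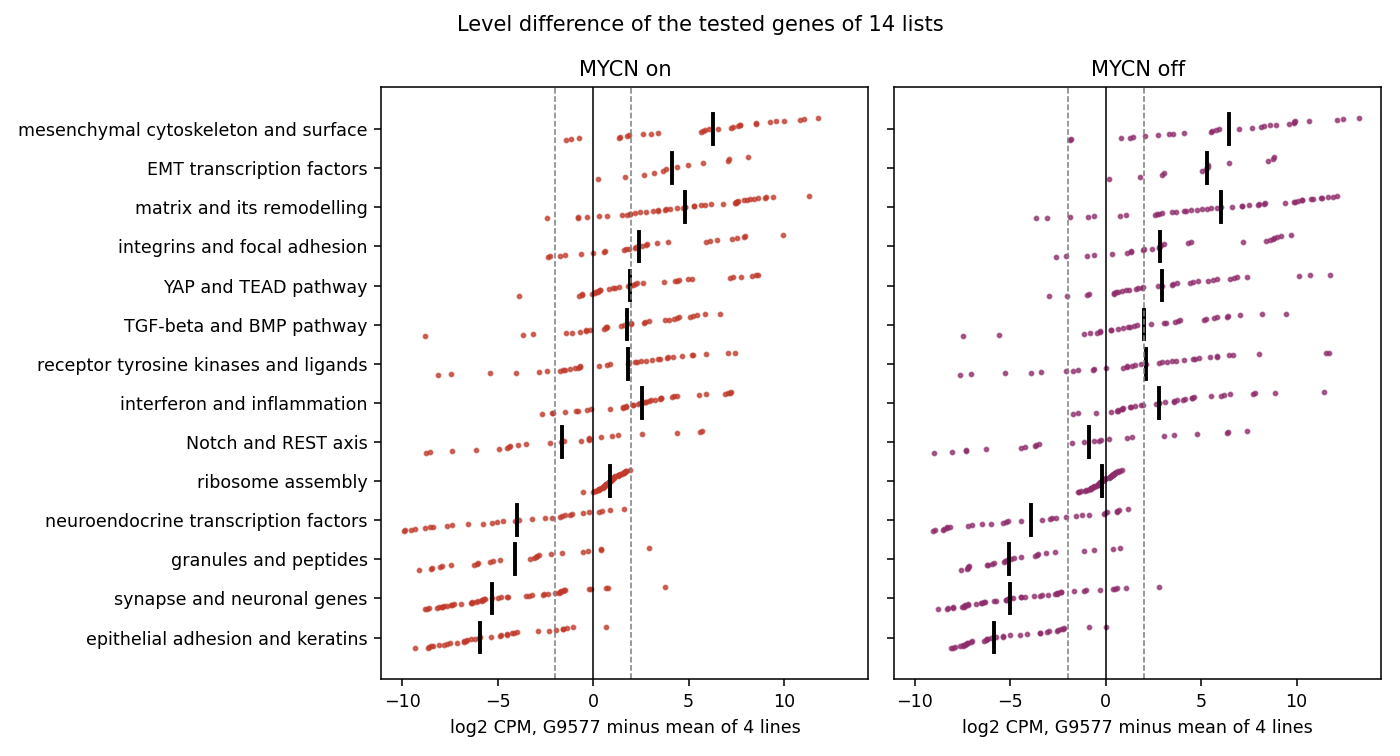
Level difference of each tested gene of 14 lists, as log2 CPM of G9577 minus the mean of the 4 lines (prior count 2), with MYCN on (left) and off (right). Points are genes, black bars the list medians and dashed lines 4-fold. The mesenchymal list has medians of 6.29 and 6.46, and the epithelial list of -5.95 and -5.88.

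The neuroendocrine and epithelial programs were low in G9577. Of 34 listed neuroendocrine transcription factors, 30 passed the filter, 17 were past the fold lower in both conditions and none was higher, with medians of -3.98 and -3.90. Prox1, a homeobox factor, was at 0.0836 and 1.17 CPM against 219 to 485 CPM. Sox1, a neural factor, was at 1.25 and 3.42 CPM against 525 to 1528 CPM. Myt1, St18 and the RNA-binding Elavl3 did not exceed 0.899, 0.669 and 0.899 CPM in G9577, against 163 to 472, 256 to 589 and 217 to 697 CPM.

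Some factors of the lung and of neuroendocrine tumours were still present in G9577 at levels not past the fold. These genes were picked from the lists after their values were seen. Nkx2-1, the lung lineage factor, was at 175 and 387 CPM against 389.6 to 877 CPM, below every other library. Foxa1 was at 255 and 290.5 CPM against 153 to 383 CPM and Sox2 at 91.5 and 71.6 CPM against 7.82 to 91.5 CPM. Nfib, at 626 and 787 CPM against 282 to 529 CPM, was above every other library. None of these 4 was past the fold in either condition. Foxa2, in contrast, was at 0.836 and 2.52 CPM against 157 to 499 CPM. The prohormone enzyme Cpe was at 497 and 876 CPM against 357 to 688 CPM, above every other line in both conditions, though under the fold.

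Of 28 granule and peptide genes, 24 passed the filter, 18 were lower in both conditions and none higher, with medians of -4.08 and -5.09. Scg3, a secretogranin, was at 0.251 and 1.35 CPM against 229 to 368 CPM, Pcsk2, a prohormone convertase, at 0 and 1.53 CPM against 49.9 to 529 CPM and Chgb at 0.502 and 3.15 CPM against 101 to 322 CPM. Of 47 synapse and neuronal genes, all passed the filter and 31 were lower in both conditions, with medians of -5.31 and -5.02. Snap25, a protein of vesicle fusion, was at 0.167 and 0.989 CPM against 142 to 408 CPM. Dcx, a microtubule protein of migrating neurons, had no count in G9577 and was at 11.3 to 220.2 CPM in the others. The RNA splicing factor Rbfox2, picked after its values were seen, was at 306 and 517 CPM against 278 to 439 CPM.

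Of 36 epithelial adhesion and keratin genes, 34 passed the filter, 26 were lower in both conditions and none higher, with medians of -5.95 and -5.88. Cdh1, the gene of E-cadherin, was at 4.43 CPM on doxycycline and 21.3 CPM off it and at 489 to 1098 CPM in the others. The keratin Krt7 was at 1.59 and 3.69 CPM against 465 to 1431 CPM, Krt8 at 0.669 and 3.69 CPM against 134 to 1166 CPM and the epithelial splicing regulator Esrp1 at 0.753 and 1.53 CPM against 206 to 497 CPM. Among the 15 genes that stood farthest below the other lines, Nalcn, a sodium leak channel, had no count in G9577. It was at 62.2, 78.7, 53.9 and 73.1 CPM and 102, 136, 66.1 and 98.9 CPM in the 4 lines, and thus at least 266-fold and 374-fold lower in G9577. The long RNA Miat was at 0.585 and 1.89 CPM against 327 to 2172 CPM and Gdap1l1 at 0.167 and 0.18 CPM against 149 to 224 CPM. Prom2, an epithelial prominin, was at 0.251 and 0.18 CPM against 115 to 299 CPM and Homer2, a synaptic scaffold, at 0.92 and 2.25 CPM against 291 to 1441 CPM.

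**Figure D3:**
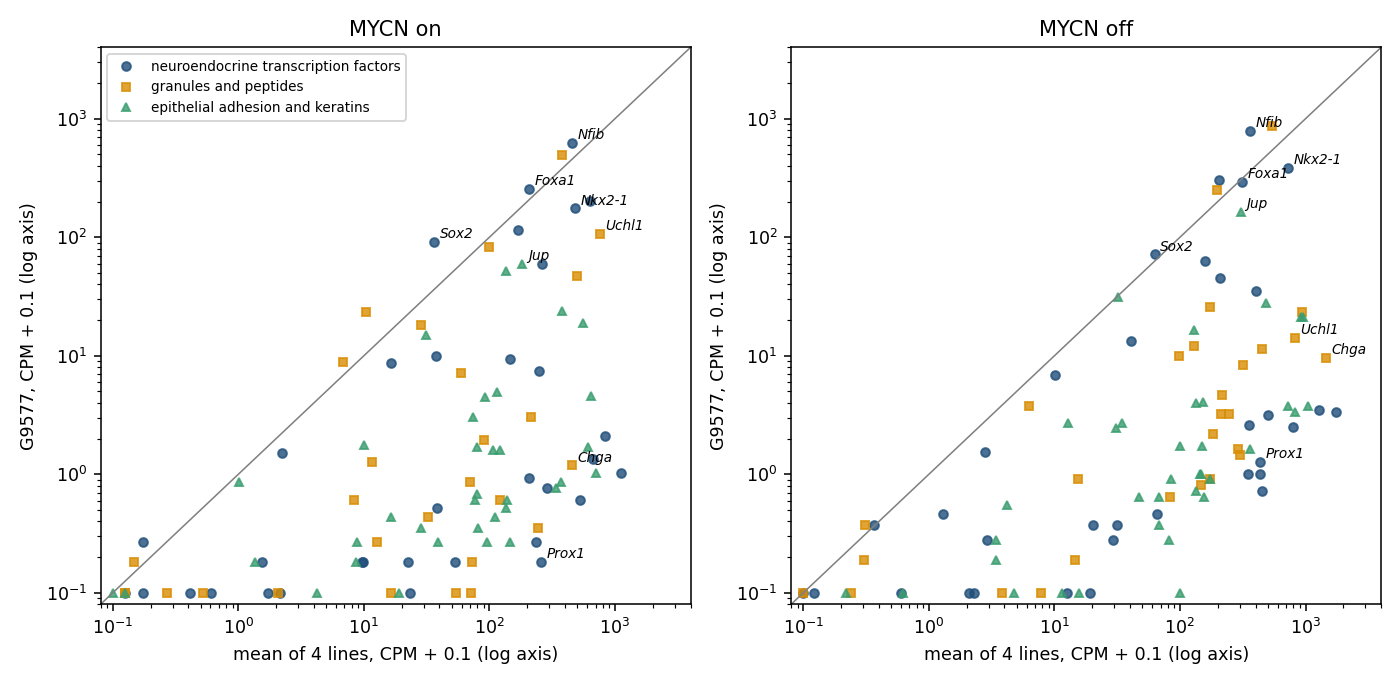
Level in G9577 against the mean of the 4 other lines for neuroendocrine factors, granule genes and epithelial genes, both as CPM plus 0.1 on log axes, with MYCN on (left) and off (right). The grey line marks equal levels. Nfib, Foxa1 and Sox2 lie near the line, whereas Prox1 and Chga lie far below it.

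In the Notch and REST axis the genes divided. Of 26, 24 passed the filter. Notch1, Notch2, Hes1 and Rest were higher in both conditions and 9 genes lower, with 4 ligands among them (Dll1, Dll3, Dll4 and Jag2) and the receptor Notch4. The list medians were -1.62 and -0.90. The receptors Notch1 and Notch2, picked after their values were seen, were at 26.1 and 137 CPM against 0.302 to 3.21 CPM and at 178 and 450.2 CPM against 10.2 to 40.6 CPM. The target Hes1, a transcriptional repressor, was at 193 and 355 CPM against 0.201 to 6.54 CPM. The ligand gene Dll1 was at 0 and 0.449 CPM against 54.7 to 123 CPM. Dll3, an inhibitory ligand, had no count in G9577 and 335, 670, 51 and 987 counts in the 4 lines with MYCN on. Against the 4 lines pooled, with a floor of 3 counts in G9577, it was at least 199-fold lower. The bound does not hold for G9488 alone. Dner, a ligand-like gene of neurons, was at 0.502 and 1.44 CPM against 227 to 1133 CPM.

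Of 25 tested genes of the tumour suppressor and cell cycle inhibitor list, which also holds D-type cyclins and their kinases, 3 were past the fold higher (Ccnd1, Ccnd2 and Cdk6) and 1 lower (Rb1) in both conditions, with medians of -0.25 and -0.72. D-type cyclins activate CDK4 and CDK6. Ccnd2 was at 137 and 85.9 CPM in G9577 and at 0 to 0.734 CPM in the 8 other libraries, and Ccnd1 at 249.7 and 92.9 CPM against 1.65 to 7.33 CPM. Cdk6 had 146 and 40 counts in G9577 and none elsewhere, at least 167-fold and 49.99-fold higher. Rb1, which these kinases act on, was past the fold lower in both conditions, with 163, 159.7, 58.2 and 131 CPM in the 4 lines with MYCN on. In the MYC family, Myc was at 9.87 and 45.1 CPM in G9577, with 0.626 to 2.09 and 2.92 to 12.2 CPM in the 4 lines, and was the 1 gene of that list past the fold higher in both conditions. Mycl was at 20.5 and 2.52 CPM against 79.5 to 142 and 69.1 to 151 CPM and past the fold lower. Of 27 glycolysis genes, 26 passed and 5 were higher in both conditions, among them Ldhb, a lactate dehydrogenase chain, at 70.1 and 134 CPM against 0 to 0.56 CPM, and Pfkm, the muscle phosphofructokinase, at 169.8 and 186 CPM against 1.62 to 5.93 CPM.

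Markers of other cell types were measured beside these results. Of 18 fibroblast markers, 15 passed the filter, and 7 were past the fold higher and 1 lower in G9577 in both conditions. Their summed level was 1022 and 4576 CPM in G9577 against 51.01 to 121 and 43.1 to 229.5 CPM. Acta2, Pdgfrb and Col1a1 also belong to the lists above. Tcf21, a factor of lung fibroblasts, had no count in any library, and Lum and Dcn, 2 fibroblast proteoglycans, did not exceed 4.85 and 2.16 CPM in G9577. The part of fibroblasts in the mesenchymal levels was not tested.

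The 9 mesothelial genes in the files, of 10 listed, summed to 20.9 and 56.99 CPM in G9577 (in the 4 lines 1.06 to 5.18 and 2.12 to 10.4 CPM), with 5 of them, Wt1 and Upk3b among these, at 0 counts. The 17 blood cell genes in the files, of 18 listed, summed to 5.77 and 57.7 CPM (in the 4 lines 5.32 to 7.98 and 3.83 to 9.99 CPM), with 8 at 0, Ptprc and Tyrobp among them. In that sum Lyz2, also an alveolar gene, held 44.4 CPM with MYCN off. The 12 endothelial genes summed to 51 and 147 CPM (in the 4 lines 21.7 to 156 and 60.8 to 480.2 CPM), with Cdh5, Tie1 and Emcn at 0 and Kdr, a VEGF receptor, at 31.8 and 105 CPM. Of these 3 lists, 4, 3 and 6 genes passed the filter. Of 16 neural crest and muscle markers, Tfap2a was at 60.5 and 80.8 CPM against 0 to 0.826 CPM and Pax3 at 19.5 and 28.1 CPM against 0 to 0.101 CPM, while Sox10, Myod1 and Myf5 had no count in G9577. The part of these cell types in the levels was not tested. Both libraries of G9577 held Xist (867 and 1404 CPM) and no count of Eif2s3y, so the pair matched in sex. Those of G4314 did the same, so these genes cannot tell the 2 lines apart. The 3 other lines held Y-linked transcripts in both libraries.

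The response to MYCN was then compared between G9577 and the 4 lines, a measure that did not enter the choice of the line. The test was the difference of the change from MYCN off to MYCN on, in log2, G9577 minus the 4 lines, with edgeR's quasi-likelihood test and Benjamini-Hochberg adjustment over 14456 genes. G9577 gives 1 pair of libraries, so that the spread comes from the 4 other pairs with 3 residual degrees of freedom and G9577 is assumed to vary like them. Mycn itself changed by 3.52 ± 0.78 (SE; adjusted p = 0.0168) in G9577 and by 2.70 ± 0.39 (SE; adjusted p = 0.00363) in the 4 lines, a difference of 0.82 ± 0.80 (SE; adjusted p = 0.558). A negative difference means that the gene fell more, or rose less, with MYCN on in G9577. The change was higher in G9577 for 186 genes (1.29%) and lower for 665 (4.6%). These shares are the base for the counts of each list below. In 255 of the 665 the fitted change was negative in G9577 and positive in the 4 lines, and in 409 it was negative in both. The median difference was -0.21 over all genes. By itself, the change in G9577 was called higher with MYCN on for 1736 genes (12%) and lower for 2726 (18.9%). In the 4 lines it was called higher for 2236 (15.5%) and lower for 2304 (15.9%), and without G9351 for 897 and 961.

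These counts depended on the lines in the fit. Without G9351 the difference was called for 8 higher and 40 lower genes, without G9488 for 31 and 139, without G9529 for 77 and 331 and without G4314 for 568 and 1291. Called in the same direction in all 4 of these fits were 7 higher and 36 lower genes. The scaling moved the balance: the median difference over all genes was -0.03 with library size alone, where 252 were higher and 429 lower (63.0% lower against 78.1%). DESeq2 called 724 higher and 1144 lower, or 61.2% lower. Of the 1135 genes past the fold higher in G9577 in both conditions, 371 were called lower with MYCN on in G9577 and 14 higher. Over all genes tested, 18.9% were called lower in G9577 and 12% higher. The 1135 genes were chosen by their level. A gene that is low in the 4 lines takes its spread from few counts, so these numbers describe the line only.

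**Figure D4:**
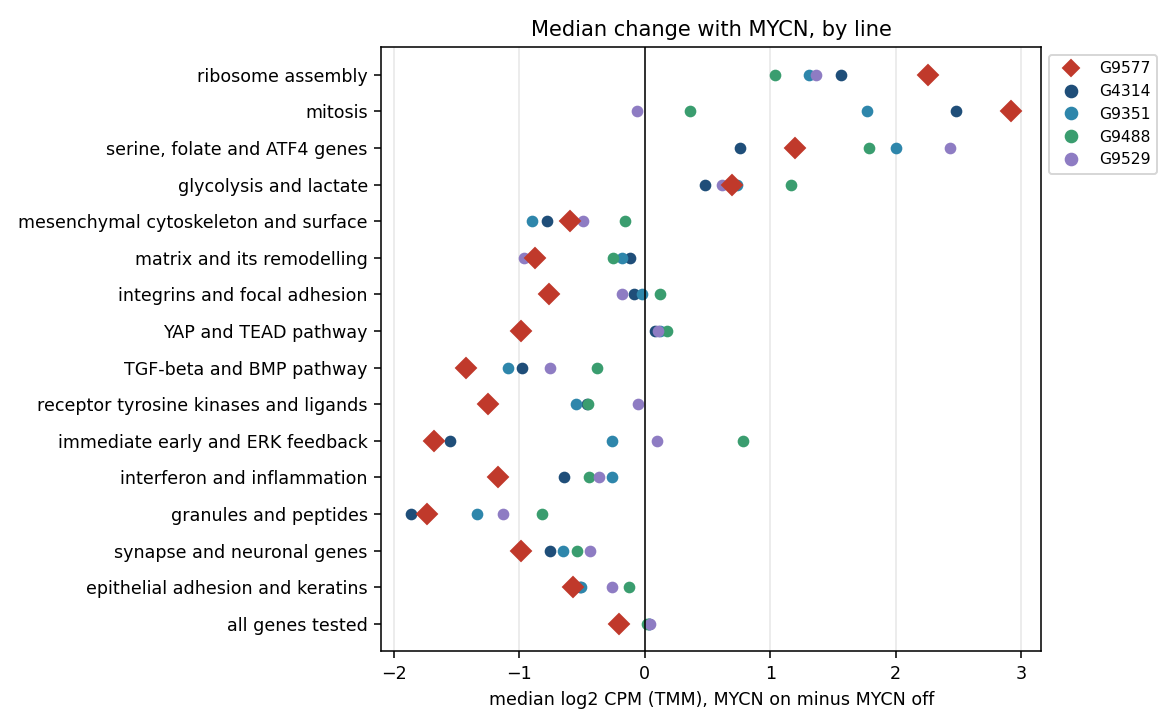
Median change with MYCN (log2 TMM-scaled CPM, MYCN on minus MYCN off) of 15 lists and of all genes, in each line, over members with a mean of at least 1 CPM both in G9577 and in the 4 lines. Red diamonds are G9577 and circles the other lines. Ribosome assembly and mitosis lie farthest right in G9577, at 2.25 and 2.92, and the YAP and TEAD list lies left of all 4 lines.

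The fibronectin gene fell with MYCN on in G9577 and rose on average over the 4 lines, but not in each of them. Fn1 changed by -2.73 ± 0.49 (SE; adjusted p = 0.00833) in G9577 and by 1.42 ± 0.36 (SE; adjusted p = 0.0237) in the 4 lines, a difference of -4.15 ± 0.60 (SE; adjusted p = 0.0205). Col1a1 was at 37.96 and 443 CPM in G9577 with MYCN on and off and at 0.0961 to 2.02 CPM in the 4 lines. Col1a1, Postn, Pdgfrb and Igfbp3 held fewer than 10 counts in most libraries outside G9577 and none of them had at least 10 counts in 5 libraries. They were kept by the filter because G9577 was high, so no test of a difference is given for these 4 genes. Vim fell by 2.67-fold with MYCN on in G9577 in the TMM-scaled fit, which differs from the ratio of its CPM values above. For the same reason neither a test of this change nor a difference is given. Without G9351, Fn1 missed the threshold (adjusted p 0.0625).

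Only 17 of the 43 matrix genes tested had a mean of at least 1 CPM on both sides. Genes low in the 4 lines take their spread from few counts. The counts of this list, of the mesenchymal list and of the fibroblast markers therefore describe the line only. Of the 43 matrix genes, 20 fell and 1 rose with MYCN on in G9577, against 11 and 3 in the 4 lines, and the difference was called for 6, all lower (median of the list -0.89). Leaving out G4314, G9351, G9488 or G9529 gave 8, 1, 3 and 3. Among 12881 genes with at least 10 counts in 5 libraries, of which 1.61% were called higher and 5.36% lower, 2 matrix genes were called lower and none higher. Over the 17 matrix genes with a mean of at least 1 CPM on both sides, the median change was -0.87 in G9577 and -0.96 to -0.12 in the 4 lines, so that G9577 lay within their range. Postn (mm9, chromosome 3, 54165029 to 54194963, plus strand), the matrix protein periostin, was at 10.03 CPM on and 979 CPM off doxycycline in G9577. The 4 lines held 0.896, 0.939, 0.367 and 0.192 CPM on and 0.56, 0.803, 0.705 and 0.36 CPM off doxycycline. Of the 28 mesenchymal cytoskeleton and surface genes, 10 fell and none rose in G9577, against 7 and 2 in the 4 lines, and the difference was called lower for 3 (median -0.65), for 4, 0, 1 and 3 without each line in turn and for 2 with the filter of 10 counts in 5 libraries. Over 15 of them at 1 CPM on both sides the median change was -0.60 in G9577 and -0.90 to -0.16 in the 4 lines, again within their range. The receptor Pdgfra was at 3.68 and 389.8 CPM with MYCN on and off in G9577, with 0.201 to 4.05 CPM in the others and a difference of -5.57 ± 0.81 (SE; adjusted p = 0.0203). It missed the threshold without G9351 (adjusted p 0.0750). Pdgfrb was at 113 and 871 CPM in G9577 against 0 to 0.734 CPM. Of the 15 fibroblast markers tested, only 3 had a mean of at least 1 CPM on both sides. Of the 15, 7 fell with MYCN on in G9577 and the difference was called lower for 4 (5, 1, 1 and 2 without each line in turn), of which Pdgfra and Npnt had at least 10 counts in 5 libraries. Npnt, an integrin ligand, was named after its values were seen. Their part in these differences was not tested.

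Most YAP genes were present in all lines. Among 26 members of the YAP list with a mean of at least 1 CPM on both sides, the median change was -0.99 in G9577 and 0.08 to 0.18 in the 4 lines, beside -0.21 and 0.02 to 0.04 over 11510 such genes of all tested. The difference was called lower for 5 of the 33 genes (median -0.79), and for 8, 1, 1 and 1 without G4314, G9351, G9488 or G9529. F3, tissue factor, was at 43.6 CPM on doxycycline and 464 CPM off it in G9577. The other lines held 10.5, 10.1, 8.63 and 10.8 CPM on and 5.51, 3.41, 3.83 and 2.88 CPM off doxycycline, so that it moved the opposite way, with a difference of -4.97 ± 0.40 (SE; adjusted p = 0.00546). Amotl2, an angiomotin that binds YAP, was at 187 and 579.9 CPM in G9577 against 20.5 to 55.5 and 32.1 to 54.3 CPM, a difference of -1.71 ± 0.32 (SE; adjusted p = 0.0328).

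Of 26 integrin and focal adhesion genes the difference was called lower for 4 (median -0.71), for 5, 0, 1 and 1 without each line in turn, for 3 with the filter of 10 counts in 5 libraries and for 1 with library size scaling. Over 16 of them at 1 CPM on both sides the median change was -0.77 in G9577 and -0.19 to 0.12 in the 4 lines. Itgb5, an integrin chain, was at 84.2 and 423 CPM in G9577 and at 0.184 to 3.19 and 0.201 to 3.27 CPM in the 4 lines, a difference of -2.89 ± 0.40 (SE; adjusted p = 0.0175). Flna, a filamin that crosslinks actin, was at 2099.8 and 4003 CPM in G9577 against 275 to 329.7 and 139 to 259 CPM. It fell with MYCN on in G9577 and rose in the 4 lines, a difference of -1.88 ± 0.38 (SE; adjusted p = 0.0366). Of F3, Amotl2, Itgb5 and Flna, F3 passed in each fit without 1 line. The other 3 missed the threshold without G9351 (adjusted p 0.0712 to 0.105), and Amotl2 and Flna also without G9488 (0.0525 to 0.0769) and without G9529 (0.0618 to 0.0665). Flna also missed it with library size scaling (0.0511).

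**Figure D5:**
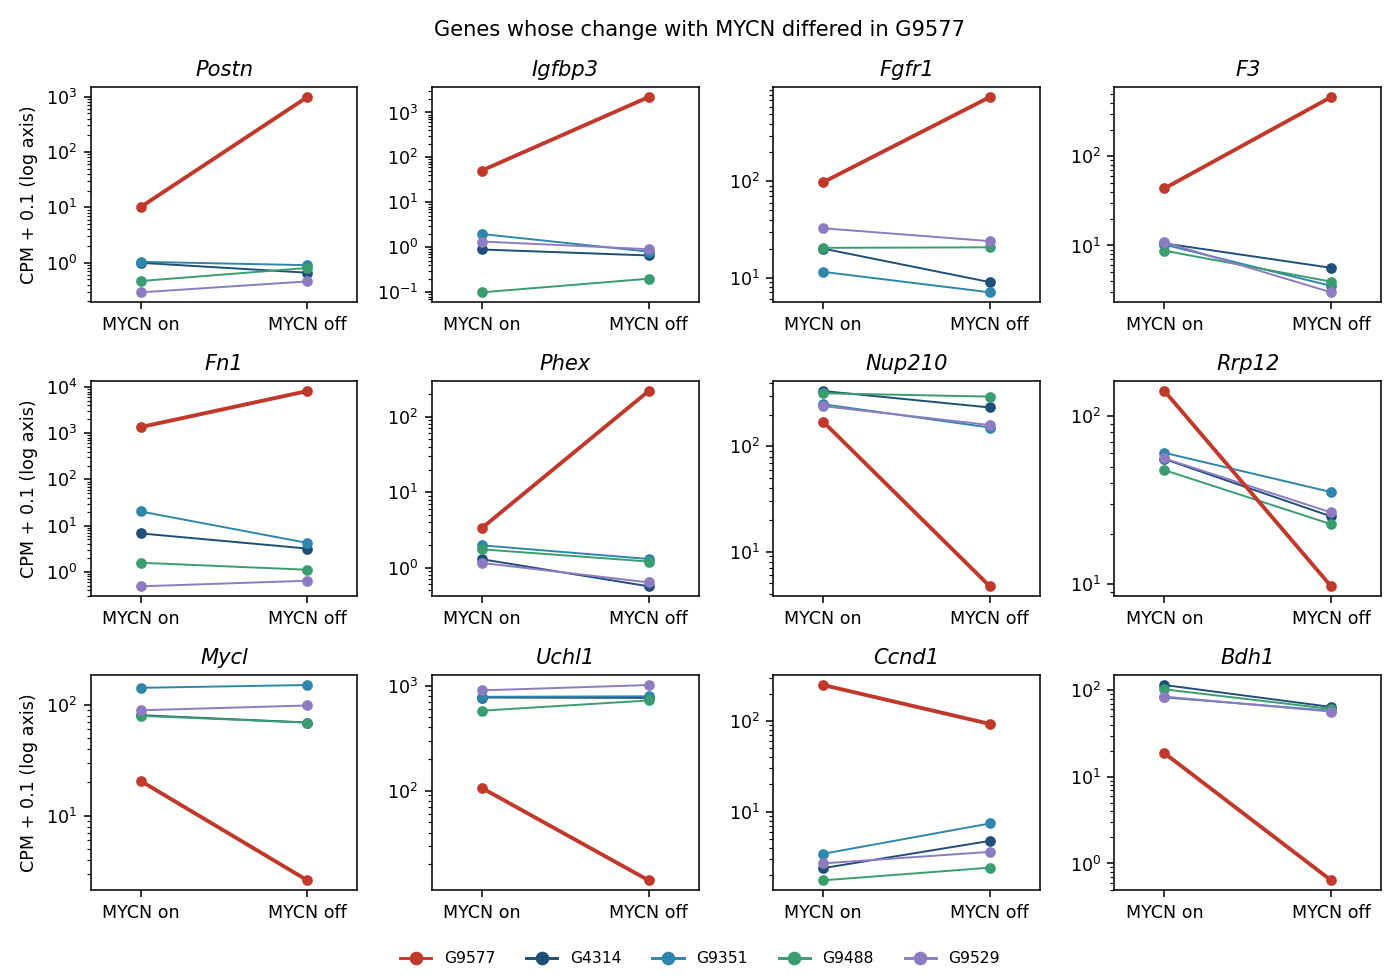
Level of 12 genes with MYCN on and off in each line, as CPM plus 0.1 on a log axis. Red lines are G9577. Postn, Igfbp3, Fgfr1, F3, Fn1 and Phex are higher with MYCN off in G9577 and flat or lower in most of the other lines, and Nup210, Rrp12, Mycl, Uchl1, Ccnd1 and Bdh1 are lower with MYCN off in G9577. For Postn and Igfbp3, which held few counts outside G9577, no test of a difference is given.

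Of 35 receptor tyrosine kinase genes and ligands tested, 15 fell and none rose with MYCN on in G9577, and 11 fell and 3 rose in the 4 lines. As for the matrix genes, members low in the 4 lines take their spread from few counts. The difference was called lower for 7 (median -1.07), for 10, 1, 3 and 3 without G4314, G9351, G9488 or G9529 and for 5 with the filter of 10 counts in 5 libraries. Over 25 of them at 1 CPM on both sides the median change was -1.25 in G9577 and -0.55 to -0.05 in the 4 lines. Igfbp3, a binding protein of insulin-like growth factors, was at 51.1 CPM on doxycycline and 2204 CPM off it in G9577 and at 0 to 1.88 CPM in the others. The receptor Fgfr1 was at 98.1 and 754 CPM in G9577. In the 4 lines it was at 19.9, 11.4, 20.3 and 32.5 CPM on and 8.87, 6.93, 20.5 and 23.8 CPM off doxycycline, a difference of -3.68 ± 0.42 (SE; adjusted p = 0.0119). The collagen receptor Ddr2 differed by -3.72 ± 0.55 (SE; adjusted p = 0.0214), with 29.02 CPM in G9529 with MYCN on and under 5 CPM in the rest of the 4 lines' libraries.

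Of 30 TGF-beta and BMP genes, 13 fell and none rose with MYCN on in G9577, and 12 fell and 3 rose in the 4 lines. The difference was called lower for 3 (median -0.55), and for 5, 0, 1 and 1 without each line in turn. Over 25 of them at 1 CPM on both sides the median change was -1.43 in G9577 and -1.09 to -0.38 in the 4 lines. The co-receptor Tgfbr3 was at 5.52 and 80.1 CPM in G9577 against 12.03 to 21.9 and 27.6 to 46.2 CPM, and fell with MYCN on in both, but further in G9577, a difference of -2.94 ± 0.32 (SE; adjusted p = 0.0118). The signal transducer Smad3 differed by -2.66 ± 0.55 (SE; adjusted p = 0.0389). The ERK feedback inhibitors Spry1 and Spry2 were at 21.2 and 193 CPM and 15.1 and 94.9 CPM in G9577, against 16.5 to 40.8 and 6.85 to 26.4 CPM, and differed by -3.13 ± 0.56 (SE; adjusted p = 0.029) and -2.68 ± 0.52 (SE; adjusted p = 0.0343). In the Notch list the difference was called for 2 genes higher (2, 0, 1 and 1 without each line in turn) and 4 lower (6, 0, 0 and 2). The target Hey1 differed by -2.44 ± 0.44 (SE; adjusted p = 0.0297) and the ligand Jag2 by 2.20 ± 0.27 (SE; adjusted p = 0.0139). Jag2 was at 26.8 and 5.03 CPM in G9577 and at 337 to 509 CPM in the others.

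The 8 signalling genes Fgfr1, Ddr2, Tgfbr3, Smad3, Spry1, Spry2, Hey1 and Jag2 missed the threshold without G9351 (adjusted p 0.0576 to 0.0893). Hey1, Smad3, Spry1 and Spry2 also missed it without G9488 (0.0662 to 0.0833), and Smad3, Ddr2, Spry1 and Spry2 without G9529 (0.0542 to 0.0619). Smad3 also missed it with library size scaling (0.0538). Among immune and transport genes, the interferon signal transducer Stat2 differed by -2.36 ± 0.40 (SE; adjusted p = 0.0272), Csf1 by -1.94 ± 0.44 (SE; adjusted p = 0.0489) and the efflux pump Abcc4 by 3.48 ± 0.46 (SE; adjusted p = 0.0169). All 3 missed the threshold without G9351 (0.0682 to 0.134), Stat2 and Csf1 without G9488 (0.0525 and 0.0741) and Csf1 without G9529 (0.0806). Csf1 also missed it with the relative log expression scaling (0.0563), library size scaling (0.0659) and limma-voom (0.0539).

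Neuroendocrine genes that changed with MYCN on in G9577 mostly fell, as in the 4 lines. Of 47 synapse and neuronal genes, 18 fell and 3 rose in G9577, and 23 fell and 6 rose in the 4 lines. The counts were 11 and 2 against 19 and 1 for 24 granule and peptide genes, and 8 and 2 against 11 and 2 for 30 neuroendocrine factors. Over all genes tested, 18.9% fell and 12% rose in G9577, and 15.9% fell and 15.5% rose in the 4 lines. Of the genes listed, 28 of 47 synapse, 20 of 28 granule and 25 of 34 factor genes were under 10 CPM in both G9577 libraries. The difference was called higher for 1, 3 and 1 genes of these lists and lower for 4, 1 and 1. Over all genes tested it was called higher for 1.29% and lower for 4.6%. Such small counts are not read as a trait of these lists. Without G9351, 2 granule genes were called higher and no other gene of these lists was called. The values of 6 of the called genes follow. Uchl1, a neuronal ubiquitin hydrolase, was at 106 CPM on doxycycline and 13.9 CPM off it. The other lines held 769, 781, 576 and 899 CPM on and 763, 790.0, 721 and 1011 CPM off doxycycline, and the difference was 2.86 ± 0.26 (SE; adjusted p = 0.00656). Ina, a neurofilament protein, was at 39.05 and 3.6 CPM against 110.0 to 282 and 73.9 to 209.7 CPM, a difference of 2.76 ± 0.32 (SE; adjusted p = 0.0119). Elavl4, an RNA-binding protein of neurons, differed by 2.07 ± 0.32 (SE; adjusted p = 0.0227). Tph1, the enzyme of serotonin synthesis, rose with MYCN on in G9577 (23.4 and 9.89 CPM on and off) and fell in the 4 lines, a difference of 4.23 ± 0.36 (SE; adjusted p = 0.00585).

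Other genes of these lists, and Cdh1 of the epithelial list, fell with MYCN on in G9577 and, by less, in the 4 lines. Cplx2, a synaptic complexin, was at 11.8 and 105 CPM in G9577, and the difference was -2.76 ± 0.32 (SE; adjusted p = 0.0122). The G protein subunit Gnao1 was at 43.4 and 343 CPM, with a difference of -2.46 ± 0.32 (SE; adjusted p = 0.0166), and Cdh1 differed by -1.94 ± 0.33 (SE; adjusted p = 0.0272). With MYCN off, Gnao1 came within the range of the 4 lines, 307 to 592 CPM, whereas Cdh1 at 21.3 CPM stayed below their 761 to 1098 CPM. Insm1 and Chga stayed at or under 9.53 CPM with MYCN off, and their differences did not pass (adjusted p 0.459 and 0.209). Without G9351, 5 of the 7 differences in these genes missed the threshold (adjusted p 0.0549 to 0.0801), and Tph1 and Uchl1 passed. Elavl4 and Cdh1 missed it without G9488 (0.0520 to 0.0564) and Cdh1 without G9529 (0.0509). With limma-voom, Elavl4 (0.0834) and Cdh1 (0.0784) missed it as well.

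Growth genes rose with MYCN in G9577, in part by more than in the other lines. Of 46 ribosome assembly genes tested, 45 rose with MYCN on in G9577 and 44 in the 4 lines, and none fell. The median change was 2.25 in G9577 and 1.04 to 1.56 in the 4 lines, and the difference was called higher for 6 (median 0.82), and for 17, 0, 1 and 2 without G4314, G9351, G9488 or G9529. Rrp12, a factor of ribosome export, was at 141 CPM on doxycycline and 9.62 CPM off it in G9577. The 4 lines held 55.5, 60.4, 47.6 and 55.9 CPM on and 25.2, 35.2, 22.7 and 26.6 CPM off doxycycline, so that G9577 was highest with MYCN on and lowest with MYCN off, a difference of 2.68 ± 0.30 (SE; adjusted p = 0.0119). Utp18, of the small subunit processome, differed by 1.8 ± 0.32 (SE; adjusted p = 0.0286).

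Of 37 mitosis genes, 21 rose with MYCN on in G9577 and 4 in the 4 lines, and the difference was called for none by edgeR at an adjusted p of 0.05. At an unadjusted p of 0.05 edgeR called 7, DESeq2 called 5 after adjustment and limma-voom 0. The lines were uneven: the median change was 2.92 in G9577, 2.48 in G4314, 1.77 in G9351, 0.36 in G9488 and -0.06 in G9529. Mki67, the proliferation antigen, was at 692 and 80.6 CPM in G9577 and at 133, 184, 730.3 and 651 CPM in the 4 lines with MYCN off. Mitosis genes were thus lower with MYCN off in G9577, G4314 and G9351, and their part in the other differences was not tested. Of 34 genes of serine and folate synthesis and of the ATF4 response, the median change was 1.20 in G9577, within 0.76 to 2.43 in the 4 lines, and the difference was called for 1 higher and 1 lower.

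Of 25 tumour suppressor and cell cycle genes, the difference was called higher for 2, Ccnd1 and Ccne1, and lower for 2, Rbl2 and Cdkn2a, which were named after their values were seen. Leaving out each line in turn gave 4, 0, 0 and 2 higher and 4, 0, 0 and 0 lower. Ccnd1 was at 249.7 and 92.9 CPM and rose with MYCN on in G9577 while it fell in the 4 lines, a difference of 2.04 ± 0.36 (SE; adjusted p = 0.0287). Ccne1, cyclin E1, was at 85.03 and 5.3 CPM in G9577 and at 61.8 to 79.7 and 32.04 to 76.03 CPM in the 4 lines, a difference of 3.35 ± 0.64 (SE; adjusted p = 0.0334). In the MYC network, Mycl was at 20.5 CPM on doxycycline and 2.52 CPM off it in G9577. In the 4 lines it was at 80.5, 142, 79.5 and 89.3 CPM on and 69.2, 151, 69.1 and 98.6 CPM off doxycycline, a difference of 2.79 ± 0.32 (SE; adjusted p = 0.0119). Mxd4, a repressor that competes for MAX, differed by -2.54 ± 0.31 (SE; adjusted p = 0.0136). Myc fell with MYCN on in G9577 and in the 4 lines, and the difference of 0.39 ± 0.60 (SE; adjusted p = 0.724) did not pass. Without G9351, all 6 differences of Mycl, Mxd4, Ccnd1, Ccne1, Rrp12 and Utp18 missed the threshold (adjusted p 0.0516 to 0.0830). Ccnd1, Ccne1 and Utp18 missed it without G9488 (0.0549 to 0.0741) and Utp18 without G9529 (0.0531), and Ccne1 with limma-voom (0.067).

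The largest differences with measured counts on both sides included genes outside these lists. Nup210 (mm9, chromosome 6, 90963061 to 91066820), a membrane protein of the nuclear pore, was at 171 CPM on doxycycline and 4.58 CPM off it in G9577. The other lines had 336, 251, 319.6 and 241 CPM on and 234, 151, 297 and 159.5 CPM off doxycycline, a difference of 4.55 ± 0.32 (SE; adjusted p = 0.00506). Bdh1, an enzyme of ketone bodies, was at 18.6 and 0.539 CPM in G9577 against 82.5 to 115 and 56.5 to 63.98 CPM, a difference of 4.23 ± 0.39 (SE; adjusted p = 0.00656). Phex, an endopeptidase of bone, was at 3.26 and 219 CPM in G9577 against 0.467 to 1.88 CPM, a difference of -7.07 ± 0.44 (SE; adjusted p = 0.00506). Islr, a secreted protein with leucine-rich repeats, was at 0.251 and 33.2 CPM against 0.0918 to 5.86 CPM, a difference of -6.92 ± 0.82 (SE; adjusted p = 0.0123). All 4 passed in each fit that left out 1 line.

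With MYCN off, G9577 also held some genes known from alveolar cells, while other alveolar markers had no count. Ager, a receptor of type I alveolar cells, was at 2.17 CPM on doxycycline and 96.8 CPM off it in G9577. The 4 lines had 4.48, 3.76, 5.32 and 10.2 CPM on and 9.25, 5.72, 5.14 and 4.86 CPM off doxycycline, a difference of -5.53 ± 0.84 (SE; adjusted p = 0.0217) that missed the threshold without G9351 (adjusted p 0.0685) and without G9488 (0.0564). The surfactant gene Sftpa1 was at 1.92 and 196 CPM in G9577 with MYCN on and off and at 0 to 0.467 CPM elsewhere. Sftpa1 was thus lower with MYCN on in G9577, while the 4 lines held too few counts for a usable test of this change or of a difference. Of 18 lung epithelial markers, 11 passed the filter, 4 were past the fold higher and 1 lower in both conditions. Their summed level was 67.5 CPM on and 481 CPM off doxycycline in G9577, and 73.4 to 121 and 142 to 209 CPM in the 4 lines, while 5 of them, Scgb1a1, Scgb3a2, Krt5 and the alveolar markers Lamp3 and Pdpn, had no count in G9577.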

How the data were processed

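RNA-seq libraries of 5 lines, each with MYCN on and off, were analysed from the deposited files of counts per gene. Per the submitters' processing notes and the file headers, bcl2fastq 1.8.4, STAR 2.5.2a and featureCounts 1.6.0 were used with mm9, without strand and without multi-mapped reads. CPM and log2 levels (prior count 2) were computed from the deposited counts. A gene was past the fold at 4-fold from the mean of the 4 lines and outside their range. Changes were tested in R 4.3.3 with edgeR 4.0.16 (TMM, 14456 genes with a minimum count of 10, adjusted p of 0.05), with line as a block, MYCN and its product with G9577, and tried with DESeq2 1.42.0, limma 3.58.1, other scalings and filters. The script was tested on simulated data. The labels give the pairing: libraries of the same line deviated together (r 0.733 to 0.890; other lines -0.556 to 0.270). Named genes were the markers, the 15 farthest in level each way, 5 per list, and the largest changes, beside those said to be picked after their values were seen. Not every gene that this names is printed. Line, members and lists were chosen with earlier results of these data known. Sequences and gene starts are from RefSeq, GRCm38.p6.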

Additional observations from a re-analysis of the deposited data

Results flagged for a closer look

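The change with MYCN differed between G9577 and the 4 other lines by a test of the difference itself for 186 genes higher and 665 lower (edgeR's quasi-likelihood test, Benjamini-Hochberg adjusted), and among them were the 35 genes whose values are given above. In each of these genes the change in G9577 lay outside the range of the 4 lines. Their choice by this test makes that likely, so it adds no support. On the log2 scale, as G9577 minus the other lines, the 13 higher differences were Nup210 (4.55), Tph1 (4.23), Bdh1 (4.23), Abcc4 (3.48), Ccne1 (3.35), Uchl1 (2.86), Mycl (2.79), Ina (2.76), Rrp12 (2.68), Jag2 (2.20), Elavl4 (2.07), Ccnd1 (2.04) and Utp18 (1.8). The 22 lower differences fell into a wider range. Past -4 were Phex (-7.07), Islr (-6.92), Pdgfra (-5.57), Ager (-5.53), F3 (-4.97) and Fn1 (-4.15). Between -4 and -2.5 were Ddr2 (-3.72), Fgfr1 (-3.68), Spry1 (-3.13), Tgfbr3 (-2.94), Itgb5 (-2.89), Cplx2 (-2.76), Spry2 (-2.68), Smad3 (-2.66) and Mxd4 (-2.54). Nearer to 0 were Gnao1 (-2.46), Hey1 (-2.44), Stat2 (-2.36), Cdh1 (-1.94), Csf1 (-1.94), Flna (-1.88) and Amotl2 (-1.71).

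Among levels in the 4 lines, Mycl stood apart in G9351 with MYCN on, at 142 CPM against 80.5, 79.5 and 89.3 CPM in G4314, G9488 and G9529. In all, 22 groups of 4 libraries were looked at in this way, 1 held a line apart, and chance gives about 1 in 20.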

How the results depend on the processing

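Levels past the fold kept their counts within 1.5 times under another scaling, prior count and filter and without each of the 4 lines. G9577 could not be left out, since it is the line compared. For the difference of the change, 186 genes higher and 665 lower, DESeq2 gave 724 and 1144 and library size scaling 429 lower. Without the pairing of libraries by line (no replicate block) it gave 1 and 1, and the changes gave 444 higher and 207 lower in the 4 lines and 285 and 345 in G9577. Leaving out 1 of the 4 lines gave 8 to 568 higher and 40 to 1291 lower genes for the difference. The same gave 897 to 1878 and 961 to 1770 for the change in the 4 lines, with the fewest without G9351. For the change in G9577 it gave 1263 to 2103 and 1940 to 3171. Of the 35 genes whose difference is printed as called, 28 missed the threshold without G9351, 14 without G9488, 9 without G9529, none without G4314, none with at least 10 counts in 5 libraries and 33 without the block; all kept their direction. With 3 residual degrees of freedom and 1 pair of G9577, small differences are out of reach. Where the other lines held near 0 counts, as for Phex and Islr, depth limits the measured change there.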
